A study of Mus musculus with 18 samples.

Results

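The response of Prep-/- macrophages to IL-4 and IL-13 was measured by bulk RNA-seq in 6 of the 18 libraries of the series. They were chosen by genotype and treatment, and they comprised 3 libraries of M2 and 3 of M0 bone marrow-derived macrophages (BMDMs), compared across all genes. BMDMs are primary macrophages, here grown from the femoral bone marrow of mice on a C57BL6/J background for 7 days in M-CSF (50 ng/ml), the growth factor that turns marrow precursors into macrophages. M2 BMDMs were then given IL-4 at 20 ng/ml and IL-13 at 20 ng/ml for 24 h, and M0 BMDMs were left untreated. For comparison, 3 M2 and 3 M0 libraries of heterozygous Prep+/- littermates were prepared the same way, so that both genotypes lacked at least 1 functional Prep allele and no group carried both. The age of the marrow donors, and whether an M0 and an M2 culture of the same replicate number came from the same mouse, are not given in the sources used here. The question addressed was which genes an IL-4/IL-13 stimulus changes in macrophages without PREP, and where that response differs from the response of Prep+/- BMDMs.

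IL-4 and IL-13 bind receptors that share the IL-4 receptor alpha chain, paired with the common gamma chain or with the IL-13 receptor alpha 1 chain. Janus kinases on these chains phosphorylate STAT6, which enters the nucleus and binds DNA near its target genes. In mouse macrophages this programme, called alternative or M2 activation, is known for arginase, chitinase-like proteins, lectins, lipid uptake, matrix turnover and cell fusion. PREP is a serine peptidase that cuts short proline-containing peptides.

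The 6 Prep-/- libraries held between 19560715 and 21670289 counts. Of 16314 genes in the table, 12021 had enough counts to be tested. Levels are given as CPM, the usual unit of counts relative to the library size, here scaled by TMM, a factor that corrects for RNA composition, and fold changes are M2 against M0 on the log2 scale. A gene was called when its edgeR quasi-likelihood test gave an adjusted p under 0.05 and the fold change exceeded 1.5. Libraries of the same group were compared with each other first. Prep-/- M2 replicate 3 lay more than 2-fold above both other replicates for 521 genes and below both for 216, together 6.85% of the 10766 genes with a mean of at least 1 CPM. The same share was 3.24% for Prep-/- M0 replicate 3, 1.72% for Prep-/- M0 replicate 1 and between 0.0918% and 0.554% for the other M0 and M2 libraries. Results that rest on M2 replicate 3 are therefore given with and without it. In Prep-/- M0 replicate 3, the liver transcript Alb was at 11.8 CPM of its library total and Apoa1 at 0.831, while no other M0 or M2 library of this genotype exceeded 0.102 for Alb or 0.0495 for Apoa1.

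Macrophage markers were present in all 6 libraries, and their summed level was lower in M2. Summed over 12 markers, in CPM of the library total without TMM, they ranged from 34573 to 55801 in M0 and from 16164 to 22614 in M2. Of the 12, Cd68 and Mrc1 were called higher and 9 lower, among them Lyz2, Csf1r and Adgre1, while Spi1, which encodes the lineage factor PU.1, had a log2 fold change of 0.04. Granulocyte precursor markers summed to between 79.5 and 165 in M0 and to between 30.4 and 50.4 in M2, and 5 of the 7 tested were called lower. Stromal markers summed to between 5.68 and 23.7 in M0 and to between 2.49 and 7.87 in M2. T and NK cell markers summed to between 8.40 and 31.3 in M0 and between 1.69 and 2.68 in M2, nearly all of it Cd4, with Cd3d at or under 0.0463 in all 6 libraries, B cell markers to between 13.7 and 20.3 and between 12.4 and 14.3, eosinophil markers to between 6.09 and 8.07 and between 2.61 and 18, and hepatocyte markers to between 343 and 813 and between 164 and 211, nearly all of it Trf, which encodes transferrin. The eosinophil markers were at 2.83, 2.61 and 18 in M2 replicates 1 to 3. Without replicate 3, their M2 sums lay below every M0 library. Proliferation markers overlapped, at 398 to 765 in M0 and 500 to 937 in M2. The genotypes differed here, since in Prep+/- BMDMs these markers summed to between 2405 and 2833 in M0 and between 1790 and 1859 in M2. Macrophage markers summed to between 25326 and 28973 in Prep+/- M0 and between 15245 and 18321 in Prep+/- M2. Erythroid and mast cell lists stayed under 1 CPM in every Prep-/- library. Endothelial markers summed to between 26.8 and 43.6 in M0 and between 243 and 323 in M2, and this was mostly Vwf. Of 4 tested, Vwf and Pecam1 were called higher and 0 lower. Pecam1 was at 3.56, 1.56 and 1.29 in M0 and at 5.17, 7.36 and 3.47 in M2. The defining marker Cdh5 lay between 0.0488 and 0.307 in all 6 libraries. The 9 markers of dendritic cells summed to between 4.01 and 7.15 in M0 and to between 29.3 and 34.7 in M2, mostly Batf3. The 2 that could be tested, Batf3 and Zbtb46, were both called higher. Zbtb46 was at 0.297, 0.378 and 0.323 in M0 and at 0.927, 0.920 and 2.36 in M2. Xcr1, Clec9a and Ccr7 were at or near 0. In bulk samples, fewer cells of a type and less RNA per cell cannot be told apart, and the part of these markers in the results that follow was not tested.

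Prep itself, the targeted gene, occupies positions 44943130 to 45043294 of chromosome 10 (GRCm39, plus strand). It was at 1.99, 2.01 and 1.48 CPM in replicates 1 to 3 of Prep-/- M0 and at 3.22, 2.40 and 2.88 CPM in Prep-/- M2, against 30.1, 34.9 and 42.5 CPM in Prep+/- M0 and 37.8, 38.3 and 40.2 CPM in Prep+/- M2. Every Prep-/- library lay far below every Prep+/- library in both states. Within Prep-/- BMDMs the small remaining level was called higher in M2, with a log2 fold change of 0.63 ± 0.20 SE (edgeR adjusted p = 0.0197). This call was lost without Prep-/- M0 replicate 3 (log2 fold change 0.50), without M2 replicate 1 (0.53) and without M2 replicate 3 (0.62).

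With the stimulus, 3631 genes were called in Prep-/- BMDMs, which is 30.2% of the genes tested. Of these, 1765 (14.7%) were higher and 1866 (15.5%) lower in M2, and the counts of the gene groups described here are to be read against these shares. The median over all genes was -0.02. Changes over 8-fold were found for 186 genes that rose and 132 that fell, and changes over 32-fold for 67 and 14. For 44.4% of the genes the 3 M2 and the 3 M0 libraries did not overlap, 22.4% with M2 above and 22.0% with M2 below. In the plot of fold change against adjusted p, Retnla, Rnase2a and Arg1 lie among the furthest rises, and Cx3cr1, the fractalkine receptor gene, among the furthest falls.

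**Figure D1:**
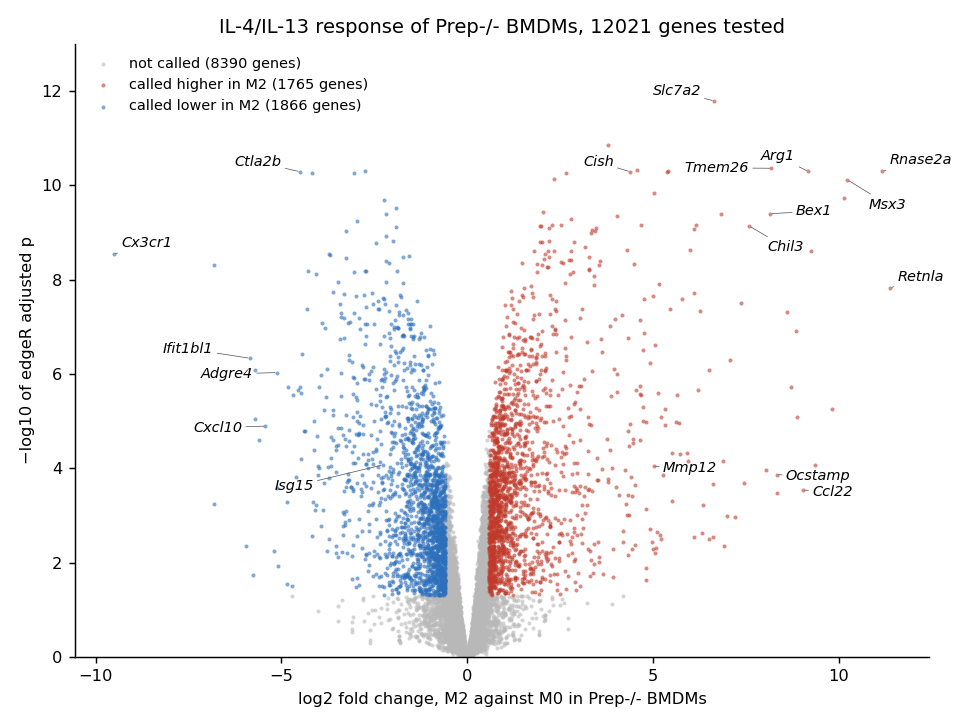
Log2 fold change in M2 against M0 in Prep-/- BMDMs (horizontal axis) against -log10 of the edgeR adjusted p (vertical axis) for 12021 genes, with 1765 genes called higher, 1866 called lower and named genes labelled. Retnla lies far to the right at a log2 fold change of 11.38, and Ctla2b far to the left at -4.50.

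The genes with the largest rise were nearly silent without the stimulus. Retnla, which encodes the secreted protein RELMα and occupies positions 48662895 to 48664824 of chromosome 16 (GRCm39), was at 4.22, 1.09 and 0.0923 CPM in M0 and at 6120, 4887 and 3286 CPM in M2 (log2 11.38 ± 0.80 SE, edgeR adjusted p = 1.5e-08). Rnase2a, a gene of the eosinophil-associated ribonuclease family, went from 0.332, 0.167 and 0 CPM to 501, 477 and 204 CPM (log2 11.17 ± 0.46 SE, edgeR adjusted p = 5.03e-11). Arg1, the arginase that turns arginine into ornithine and urea, was at 0.996, 1.05 and 0.185 CPM in M0 and at 334, 473 and 495 CPM in M2 (log2 9.17 ± 0.38 SE, edgeR adjusted p = 5.03e-11). All M2 libraries of these 3 genes lay more than 100-fold above the highest M0 library. For 3 further genes, with no M0 library above 3 counts, the rise can be given only as a lower bound.

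These were the chitinase-like Chil4, at least 299-fold higher in M2 at 50.5, 46.0 and 25.1 CPM, the homeobox gene Msx3, at least 185-fold higher at 25.4, 32.1 and 17.7 CPM, and the sodium channel gene Scn3a, at least 229-fold higher at 35.6, 37.3 and 20.1 CPM. The membrane protein gene Tmem26 rose from 1.75, 0.628 and 0.738 CPM to 323, 286 and 290 CPM (log2 8.18 ± 0.32 SE, edgeR adjusted p = 4.33e-11). Bex1 rose from 0.0949, 0.126 and 0.231 CPM to 65.0, 28.5 and 40.1 CPM (log2 8.16 ± 0.41 SE, edgeR adjusted p = 3.97e-10). In each of these genes M2 replicate 3 lay within 3-fold of the other M2 libraries. M0 replicate 1 set the size of some of these rises, since without it the log2 fold changes were 12.92 for Retnla, 12.04 for Rnase2a and 8.77 for Tmem26, and further on 8.19 for Chil3, 7.05 for Fn1 and 6.25 for Ccl8, all still called.

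Ccl22 and Ocstamp were the exceptions among the 10 largest rises. Ccl22, a chemokine that attracts CCR4-bearing T cells, was at 7.29, 4.30 and 163 CPM in M2 replicates 1 to 3, and its log2 fold change of 9.03 was 5.71 without replicate 3 and 10.19 without M0 replicate 1. Ocstamp, a membrane protein needed for osteoclast and macrophage fusion, was at 7.09, 4.50 and 124 CPM, and its 8.33 was 5.36 without M2 replicate 3 and 9.28 without M0 replicate 3. Both remained called, and replicates 1 and 2 lay above every M0 library.

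The largest falls took in receptors and interferon-stimulated genes. Cx3cr1, the receptor of fractalkine, was at 18.4, 17.7 and 12.5 CPM in M0 and at 0, 0 and 0.0479 CPM in M2, at least 110-fold lower with all M2 libraries at or under 3 counts. Adgre4, an adhesion receptor of the F4/80 family, fell from 98.4, 41.6 and 23.2 CPM to 1.21, 2.60 and 0.863 CPM (log2 -5.12 ± 0.52 SE, edgeR adjusted p = 9.35e-07), with -4.38 without M0 replicate 1 and -5.72 without M2 replicate 2. Marcksl1, an actin-regulating protein kinase C substrate, fell from 328, 130 and 166 CPM to 7.85, 4.45 and 16.5 CPM (log2 -4.44 ± 0.42 SE, edgeR adjusted p = 3.73e-07), with -5.08 without M2 replicate 3. For these 3 genes no M2 library reached the lowest M0 library. Ctla2b, a cysteine protease inhibitor, fell from 108, 124 and 157 CPM to 5.08, 6.80 and 5.22 CPM (log2 -4.50 ± 0.19 SE, edgeR adjusted p = 5.12e-11). Pilrb2, a paired immunoglobulin-like receptor gene, fell by 4.81 on the log2 scale (log2 fold change -6.54 without M2 replicate 3), and Ly6a, which encodes the surface protein Sca-1, fell by 4.30. The other 4 of the 10 largest falls, Ifit1bl1, Ifit3b, Ifit3 and Cxcl10, are interferon-induced. Ifit3b, a near copy of Ifit3, had a log2 fold change of -5.72, and of -5.04 without M0 replicate 1.

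**Figure D2:**
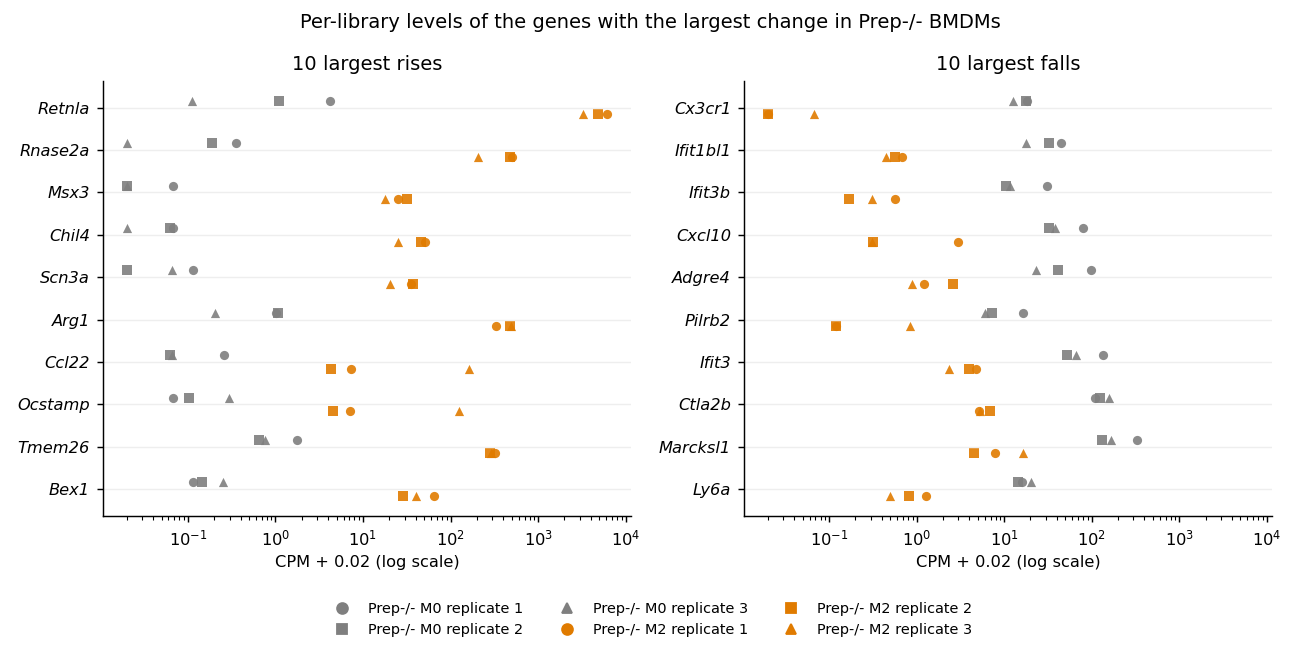
CPM plus 0.02 on a log axis in each Prep-/- M0 and M2 library for the 10 genes with the largest rise (left) and the 10 with the largest fall (right) among called, non-overlapping genes averaging 5 CPM or more. Each point is 1 library, and for Ccl22 and Ocstamp M2 replicate 3 stands far to the right of the other M2 libraries.

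By the change in CPM itself, the genes that gained most were Psap, Lgals3, Retnla, Chil3 and Gpnmb. Psap, the precursor of the saposins that help lysosomal enzymes to degrade sphingolipids, was at 17030, 12935 and 16704 CPM in M0 and at 37290, 31958 and 28532 CPM in M2 (log2 1.07 ± 0.15 SE, edgeR adjusted p = 3.70e-05). Lgals3, which encodes galectin-3, rose by 1.43 and Gpnmb, a glycoprotein of phagocytes, by 0.86 on the log2 scale. The genes that lost most were Lyz2, Apoe, Selenop, Tmsb4x and Itm2b. Lyz2, the macrophage lysozyme, fell from 39295, 32197 and 25299 CPM to 14679, 12689 and 9545 CPM (log2 -1.39 ± 0.18 SE, edgeR adjusted p = 1.52e-05), and Apoe, the apolipoprotein that carries cholesterol out of macrophages, from 10756, 5656 and 5409 CPM to 2214, 1437 and 1148 CPM (log2 -2.18 ± 0.36 SE, edgeR adjusted p = 0.000138). Selenop, a selenium carrier, fell by 1.67, Tmsb4x, an actin-binding peptide, fell by 1.27 and Itm2b fell by 0.79.

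Of the receptor chains, Il4ra and Il13ra1 fell and Il2rg was not called. Il4ra, the receptor chain shared by both cytokines, was at 181, 157 and 128 CPM in M0 and at 62.1, 66.5 and 47.2 CPM in M2 (log2 -1.41 ± 0.18 SE, edgeR adjusted p = 1.06e-05). Il13ra1 fell from 23.2, 20.5 and 11.2 CPM to 2.06, 2.2 and 3.55 CPM (log2 -2.81 ± 0.28 SE, edgeR adjusted p = 7.27e-07). The groups did not overlap for either receptor chain. Il2rg, the common gamma chain, was at 0.20 on the log2 scale (edgeR adjusted p = 0.279), and Stat6 at 0.16 (edgeR adjusted p = 0.308), neither called. Jak3, the kinase of the common gamma chain, fell by 0.86, and the phosphatase gene Ptpn6 fell by 0.77. Jak2 rose by 1.23, and Irs2, an adaptor that carries the IL-4 signal to PI3 kinase, by 1.91. In all, 3 of 15 tested members of this list were called higher and 4 lower, with a median of -0.10.

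Among the feedback inhibitors, 4 of 10 rose and 1 fell, with a median of 0.42. Cish, a STAT-induced SOCS family inhibitor, was at 3.51, 2.97 and 3 CPM in M0 and at 74.8, 69.8 and 53.2 CPM in M2 (log2 4.38 ± 0.19 SE, edgeR adjusted p = 5.12e-11). Socs1, which inhibits Janus kinases, went from 2.61, 0.837 and 2.68 CPM to 79.7, 78.6 and 57.4 CPM (log2 5.15 ± 0.36 SE, edgeR adjusted p = 1.26e-08). Both were low in every M0 library and high in every M2 library. Socs6 rose by 1.19 on the log2 scale, and Socs3, the feedback inhibitor of the IL-6 family receptors, fell from 13, 11.6 and 5.81 CPM to 3.77, 4.20 and 3.36 CPM (log2 -1.42 ± 0.22 SE, edgeR adjusted p = 8.01e-05). The STAT inhibitors Pias4 and Pias1 did not reach a 1.5-fold change, at log2 fold changes of 0.50 and -0.41.

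Of 24 transcriptional regulators tied to IL-4 signalling, 15 were called higher and 2 lower, with a median log2 fold change of 0.95. Bhlhe40, a helix-loop-helix repressor, was at 5.50, 3.93 and 5.31 CPM in M0 and at 178, 169 and 264 CPM in M2 (log2 5.38 ± 0.23 SE, edgeR adjusted p = 5.12e-11). Pparg, the nuclear receptor of lipid uptake, rose from 17.4, 13 and 11.4 CPM to 129, 105 and 139 CPM (log2 3.16 ± 0.19 SE, edgeR adjusted p = 1.99e-09), and its coactivator gene Ppargc1b from 2.80, 2.34 and 2.21 CPM to 26.4, 27.5 and 17.2 CPM (log2 3.27 ± 0.21 SE, edgeR adjusted p = 6.00e-09). Irf4, Klf4 and Nfil3, transcription factors of M2 activation, rose by 3.29, 2.84 and 2.64. Egr2 and Kdm6b, named after their values were seen, went in different directions. Egr2, an early STAT6 target, rose by 4.99, and Kdm6b, a histone H3K27 demethylase gene, fell by 0.97.

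Of 30 tested effector genes of alternative activation, 24 were called higher and 3 lower, with a median of 3.64. Chil3, a secreted chitinase-like lectin also known as Ym1, was at 27.6, 13.2 and 8.26 CPM in M0 and at 4020, 3054 and 2365 CPM in M2 (log2 7.59 ± 0.41 SE, edgeR adjusted p = 7.28e-10). Mrc1, the mannose receptor, was already high in M0 at 804, 878 and 953 CPM and reached 1602, 1930 and 1210 CPM in M2 (log2 0.85 ± 0.17 SE, edgeR adjusted p = 0.000716). The mannose receptor thus changed far less than the chitinase-like and arginase genes, although its groups did not overlap. Pdcd1lg2, the checkpoint ligand PD-L2, rose from 0.949, 0.586 and 0.461 CPM to 56.3, 48.5 and 37.2 CPM (log2 6.15 ± 0.33 SE, edgeR adjusted p = 7.03e-10). Slc7a2, the cationic amino acid transporter that brings arginine into the cell, rose from 1.80, 1.46 and 1.48 CPM to 154, 124 and 195 CPM (log2 6.64 ± 0.20 SE, edgeR adjusted p = 1.61e-12) and had the smallest adjusted p of the effectors. Flt1, a VEGF receptor, rose by 6.83, Fn1, the matrix protein fibronectin, by 6.27 and the eosinophil-associated ribonuclease gene Ear2 by 7.35. The 3 effectors that fell, named after their values were seen, were the transglutaminase gene F13a1 (log2 fold change -3.14), Tnfsf14 (-2.96) and the cytokine gene Il10 (-2.26). Trem2, Alox15 and Il1rn were not called. The log2 fold changes of Alox15 and Il1rn were 0.52 and 1.94, and that of Il1rn was -0.83 without M2 replicate 3.

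STAT6 is known to favour the spaced palindrome of TTC, any 4 bases and GAA, which reads the same on both strands. In RefSeq promoter windows of GRCm38.p6, from 250 bases before to 50 after the start, 9681 of the 12021 tested genes had a sequence, and 6.77% of these windows held the motif. It was found in 7.90% of the windows of called higher genes (112 of 1418, Wilson 95% interval 6.61% to 9.42%), in 6.75% of those of called lower genes and in 13.1% of those of genes that rose over 8-fold (18 of 137, interval 8.48% to 19.8%). Of 20 effector genes with a window, 4 held it (20.0%, interval 8.07% to 41.6%), and so did 6 of 27 interferon-stimulated genes, most of which fell (22.2%, interval 10.6% to 40.8%). The windows of 3 effectors are shown in part with the motif in capitals, because these genes are examples of the effectors that rose. The motif begins 145, 82 and 127 bases before the start, in the order printed, on the plus strand of chr16:48842439-48842498, chr19:29410812-29410871 and chr7:128129398-128129457.
Retnla: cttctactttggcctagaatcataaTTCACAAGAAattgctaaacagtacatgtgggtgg
Pdcd1lg2: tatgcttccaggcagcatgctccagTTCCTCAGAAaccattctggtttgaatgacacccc
Itgax: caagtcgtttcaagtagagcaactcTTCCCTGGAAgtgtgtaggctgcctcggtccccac

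These are matches of letters and no measurement of binding. The shorter spacing TTCNNNGAA, favoured by other STAT proteins, was in 8.24% of all windows and in 7.48% of those of called higher genes.

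Lectin genes went in both directions. Of 18 tested C-type lectin genes, 6 were called higher and 9 lower, with a median of -0.46. Mgl2, a galactose-binding lectin of M2 macrophages, rose from 9.86, 5.40 and 3.78 CPM to 408, 499 and 402 CPM (log2 6.10 ± 0.34 SE, edgeR adjusted p = 8.44e-10), and Clec7a, the β-glucan receptor Dectin-1, from 228, 178 and 131 CPM to 901, 766 and 936 CPM (log2 2.28 ± 0.24 SE, edgeR adjusted p = 1.32e-06). Clec4e, which encodes Mincle, a receptor for mycobacterial glycolipids, fell from 82.6, 83.5 and 48.8 CPM to 8.30, 7.30 and 6.95 CPM (log2 -3.25 ± 0.20 SE, edgeR adjusted p = 3.53e-09). Clec4d, of the same family, fell by 1.75, the inhibitory receptor gene Clec12a fell by 1.96 and Cd302 fell by 1.73. Clec10a, named after its values were seen, was at 146, 106 and 136 CPM in M0 and at 251, 252 and 144 CPM in M2, called higher with overlapping libraries (log2 fold change 0.74).

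Of 20 genes of scavenging and lipid uptake, 8 were called higher and 5 lower, with a median of 0.36, and of -0.13 without M2 replicate 3. Fabp4, a fatty acid-binding protein and PPARγ target, rose from 16.8, 8.12 and 19.7 CPM to 454, 285 and 261 CPM (log2 4.49 ± 0.29 SE, edgeR adjusted p = 4.56e-09), and its relatives Fabp5 and Fabp3 rose by 1.86 and 1.67. The scavenger receptor gene Stab1 fell from 1680, 1901 and 1460 CPM to 402, 514 and 274 CPM (log2 -2.08 ± 0.20 SE, edgeR adjusted p = 5.39e-07). Cxcl16, a membrane-bound chemokine that takes up oxidized lipoprotein, fell by 2.16 and Scarb2, a lysosomal membrane receptor, fell by 0.92. Cd36, named after its values were seen, was at 1010, 950 and 3684 CPM in M2 against 288, 268 and 374 CPM in M0, a log2 fold change of 2.60 and of 1.66 without M2 replicate 3.

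CC chemokines mostly rose, with 8 of 13 called higher and 2 lower, and a median of 1.47. Ccl6 was at 255, 179 and 230 CPM in M0 and at 1140, 868 and 800 CPM in M2 (log2 2.08 ± 0.19 SE, edgeR adjusted p = 3.62e-07), and Ccl9, its relative from the same cluster, rose by 1.20. Ccl8, a ligand of several CC receptors, rose from 0.949, 0.251 and 0.231 CPM to 22.1, 10.5 and 23.9 CPM (log2 5.31 ± 0.64 SE, edgeR adjusted p = 5.48e-06). The monocyte attractants Ccl7 and Ccl2 rested in part on 1 library. Ccl7 was at 38.6, 51.4 and 167 CPM in M2 replicates 1 to 3, with a log2 fold change of 4.46 and 3.53 without replicate 3. Ccl2 was at 32.5, 36.6 and 399 CPM, with 4.26 and 2.09 without it.

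Of 16 chemokine and chemoattractant receptors, 2 were called higher and 8 lower, with a median of -0.61. Ccr2, the receptor of Ccl2, fell from 130, 114 and 87.1 CPM to 13.3, 12.3 and 14.6 CPM (log2 -3.04 ± 0.20 SE, edgeR adjusted p = 7.02e-09), and the M2 libraries lay close together. Cxcr3, the receptor of Cxcl10, fell by 2.81, and the complement C5a receptors C5ar1 and C5ar2 also fell (log2 fold changes -2.02 and -1.75). C5ar1 was at 37.2, 32.8 and 167 CPM in M2, and without replicate 3 its log2 fold change was -3.19. Ccr1 was called higher at 15.3, 11.7 and 98.5 CPM in M2 against 8.11, 5.11 and 8.21 CPM in M0, with a log2 fold change of 2.56 that was 0.92 without replicate 3.

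Of the 30 gene lists, the interferon-stimulated genes had the largest share called in 1 direction. Of 36 tested, 32 were called lower in M2, with a median log2 fold change of -1.61, and 30 without M2 replicate 3. Ifit1bl1 was at 45.2, 32.5 and 17.7 CPM in M0 and at 0.654, 0.550 and 0.431 CPM in M2 (log2 -5.85 ± 0.56 SE, edgeR adjusted p = 4.63e-07). Ifit3, of the same gene family, fell from 135, 52.7 and 66.3 CPM to 4.78, 4 and 2.35 CPM (log2 -4.51 ± 0.49 SE, edgeR adjusted p = 1.90e-06), and Ifit1 from 88.2, 46.3 and 68.5 CPM to 5.94, 2.50 and 3.21 CPM (log2 -4.12 ± 0.52 SE, edgeR adjusted p = 1.02e-05). M0 replicate 1 was the highest for each of these, and the groups did not overlap. Oas2 and Oasl2, of the oligoadenylate synthetase family that senses double-stranded RNA, fell (log2 fold changes -2.60 and -2.46). Irf9, the DNA-binding part of the type I interferon factor ISGF3, fell from 79.2, 77.1 and 69.5 CPM to 32.2, 35.7 and 31.4 CPM (log2 -1.18 ± 0.13 SE, edgeR adjusted p = 2.67e-06). Named after their values were seen, its partner Stat2 fell (log2 fold change -0.62), the antiviral gene Rsad2 fell by 3.47 and the ubiquitin-like modifier Isg15 fell by 2.27. The call of Stat2 was lost without M2 replicate 3 (log2 fold change -0.47). Cxcl10, an interferon-induced chemokine of the inflammatory list, fell from 79.5, 32.3 and 38.6 CPM to 2.92, 0.300 and 0.288 CPM (log2 -5.43 ± 0.71 SE, edgeR adjusted p = 1.28e-05), with -7.39 without M2 replicate 1.

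ISGF3 and the IRF proteins are known to bind repeats of GAAA, searched here on both strands as GAAA, any 2 bases and GAAA again. The motif was chosen after the fall of these genes had been seen. It was in 4.0% of all 9681 promoter windows, in 6.95% of those of called lower genes, in 15.0% of those of genes that fell over 8-fold (16 of 107, Wilson 95% interval 9.42% to 22.9%) and in 55.6% of those of the interferon-stimulated genes (15 of 27, interval 37.3% to 72.4%). Of the called higher genes, 2.96% held it. These shares are not independent, since most interferon-stimulated genes are also among the called lower genes. Near-copy promoters, such as those of Ifit3 and Ifit3b with the same stretch, were counted separately, so the intervals can be too narrow. The list was made of interferon targets, so a high share there was likely whatever their response. Stretches of 4 such promoters are shown, with the matches in capitals, since they belong to genes with large falls. They lie at chr4:156200850-156200921 (minus strand), chr19:34640760-34640838 (plus), chr19:34583348-34583441 (plus) and chr12:26456538-26456597 (minus) of GRCm38.p6, in the order printed. The first match begins 78, 104, 156 and 120 bases before the start.
Isg15: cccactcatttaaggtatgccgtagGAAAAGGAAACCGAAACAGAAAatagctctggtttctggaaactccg
Ifit1: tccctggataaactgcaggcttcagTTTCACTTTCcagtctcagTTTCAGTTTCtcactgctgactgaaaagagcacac
Ifit3: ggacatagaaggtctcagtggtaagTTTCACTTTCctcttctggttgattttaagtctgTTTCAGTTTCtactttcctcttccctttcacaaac
Rsad2: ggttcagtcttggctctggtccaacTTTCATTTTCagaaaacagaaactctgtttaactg

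The Isg15 stretch holds 3 overlapping matches, those of Ifit1 and Ifit3 hold 2 each on the opposite strand, and that of Rsad2 holds 1.

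Inflammatory genes were mostly lower or not called, with 3 of 29 called higher and 11 lower and a median of -0.81. Il1b, the interleukin-1β gene, was at 8.87, 3.06 and 1.94 CPM in M0 and at 0.402, 0.250 and 0.383 CPM in M2 (log2 -3.71 ± 0.62 SE, edgeR adjusted p = 0.000162, and -2.84 without M0 replicate 1), a low level in both states. The NF-κB pathway genes Nfkbiz and Nfkbia fell (log2 fold changes -3.42 and -1.50), the cytokine gene Il18 fell by 1.64 and Cd80, a ligand of CD28, fell by 0.84. Nos2 and Il6 stayed under 1.4 CPM in all 6 libraries and were not called. Tnf was at 7.64, 5.27 and 6.37 CPM in M0 and at 2.62, 1.70 and 13.2 CPM in M2. It was not called with all libraries (log2 fold change -0.13), and without M2 replicate 3 it was called lower at -1.57.

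Of 24 genes of Toll-like receptor signalling, 2 were called higher and 11 lower, with a median of -0.29. Tlr2, the receptor of bacterial lipopeptides, fell from 235, 181 and 141 CPM to 20.6, 18.2 and 11.5 CPM (log2 -3.47 ± 0.24 SE, edgeR adjusted p = 1.10e-08), and the LPS co-receptor Cd14 from 588, 353 and 396 CPM to 60.1, 61.3 and 72.2 CPM (log2 -2.79 ± 0.20 SE, edgeR adjusted p = 2.12e-08). Tlr4, the LPS receptor itself, went the other way, from 98.8, 115 and 85.1 CPM to 197, 201 and 163 CPM (log2 0.91 ± 0.12 SE, edgeR adjusted p = 1.13e-05). The adaptor gene Myd88 fell by 0.86, Irak3, an inhibitor of this pathway, fell by 1.27 and Tlr3, the receptor of double-stranded RNA, fell by 1.10.

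Antigen presentation on MHC class II gave no common direction, with 2 of 16 called higher and 5 lower and a median of -0.32. Ifi30, a thiol reductase that opens antigens in the lysosome, rose from 235, 223 and 297 CPM to 569, 527 and 491 CPM (log2 1.07 ± 0.11 SE, edgeR adjusted p = 1.17e-06), and H2-DMa, which loads peptides onto class II, by 1.09. Rfx5, a factor at class II promoters, fell by 0.86, while the gene of its partner, Rfxap, was not called (-0.35). Marchf1, a ubiquitin ligase that removes class II from the surface, fell by 0.80. The class II genes themselves were uneven among the M0 libraries, and were named after this had been seen. Cd74, the invariant chain, was at 1107, 185 and 193 CPM in M0 and at 1247, 1024 and 690 CPM in M2, and H2-Aa at 166, 24.5 and 20.2 and 78.5, 51.5 and 41.9 CPM. Without M0 replicate 1, the high one, 7 of the 16 were called higher and 4 lower, with a median of 0.57.

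Complement and Fc receptor genes leaned to lower levels, with 12 of 24 called lower and 2 higher and a median of -0.92. Fcgr1, the high-affinity IgG receptor, fell from 239, 132 and 136 CPM to 20.4, 13.4 and 21.4 CPM (log2 -3.20 ± 0.26 SE, edgeR adjusted p = 8.30e-08). C1qa and C1qc, subunits of the first complement component, fell (log2 fold changes -2.29 and -1.24), and the activating receptor gene Fcgr4 fell by 1.47. Itgax, the integrin chain CD11c of complement receptor 4, rose from 10.5, 2.43 and 12.4 CPM to 192, 152 and 585 CPM (log2 5.20 ± 0.65 SE, edgeR adjusted p = 8.06e-06, 4.36 without replicate 3). Of 18 costimulatory genes, 6 were called higher and 7 lower, with a median of -0.17, and of -0.77 without M2 replicate 3. Icosl, the ICOS ligand, fell from 31.2, 23.9 and 17.4 CPM to 3.32, 2.25 and 1.29 CPM (log2 -3.40 ± 0.27 SE, edgeR adjusted p = 5.19e-08), Lgals9 fell by 1.06 and Vsir, which encodes VISTA, fell by 1.09. The inhibitory receptor genes Cd200r1 and Lilrb4a rose by 1.18 and 1.43.

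In the lysosome, 10 of 19 tested subunits and accessory proteins of the proton pump were called higher. Of 37 genes of the V-ATPase and the lysosomal membrane, 17 were called higher, with a median of 0.53, and 18 without M2 replicate 3. Atp6v0d2, a subunit of the membrane part of the pump, rose from 56.3, 21.1 and 28.1 CPM to 907, 714 and 1018 CPM (log2 4.65 ± 0.38 SE, edgeR adjusted p = 7.27e-08), and Atp6v0a1 from 237, 204 and 194 CPM to 932, 854 and 1526 CPM (log2 2.38 ± 0.18 SE, edgeR adjusted p = 2.82e-08). In the cytosolic part, Atp6v1b2, Atp6v1h, Atp6v1c1 and Atp6v1a rose by 1.52, 1.34, 1.24 and 0.95 on the log2 scale. The other genes called, named after their values were seen, included the regulators Tfeb, Mitf and Tfec and the cholesterol exporter Npc1.

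Of 18 lysosomal proteases and their inhibitors, 6 were called higher and 3 lower, with a median of 0.43. Ctsk, the collagen-cutting cathepsin K, was at 6.17, 6.4 and 8.44 CPM in M0 and at 49.1, 44.7 and 45.8 CPM in M2 (log2 2.73 ± 0.17 SE, edgeR adjusted p = 3.86e-09). Ctsb and Ctsd, cathepsins B and D, had log2 fold changes of 0.36 (edgeR adjusted p = 0.0263) and 0.23 (edgeR adjusted p = 0.198) and were not called. Ctss, cathepsin S, missed the fold minimum at 0.54 (edgeR adjusted p = 0.0128) and passed it without M0 replicate 1 (0.80) and without M2 replicate 2 (0.60). Ctsz, Ctsl and Ctsa rose by 1.34, 0.87 and 0.69, and the cathepsin inhibitor gene Cstb by 0.85. Napsa, an aspartic protease, fell by 0.95. Of 36 lysosomal hydrolases and cofactors, 8 were called higher and 2 lower, with a median of 0.12. They included Acp5, the tartrate-resistant phosphatase of osteoclasts (2.23), the α-galactosidase gene Gla (1.11) and Galns (0.82), while Sgsh and Ppt2 fell (log2 fold changes -1.47 and -0.64).

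Genes of cell fusion and osteoclasts were called higher in 13 of 25 cases and lower in 3, with a median of 1.17, and of 0.51 without M2 replicate 3. Itgb3, the β3 integrin, rose from 10.6, 11.7 and 17.3 CPM to 122, 129 and 144 CPM (log2 3.32 ± 0.19 SE, edgeR adjusted p = 9.99e-10), and the tetraspanin genes Cd9 and Tspan5 by 2.37 and 2.21. Dcstamp, the partner of Ocstamp in fusion and named after its values were seen, was at 16.8, 11.5 and 183 CPM in M2 against 4.32, 0.586 and 2.68 CPM in M0, with a log2 fold change of 4.82 and of 2.50 without M2 replicate 3. Matrix genes were called higher in 16 of 32 cases and lower in 5, with a median of 0.85, and in 13 and 5 without that library, with a median of 0.25, while 3 were lower without M0 replicate 2. Fn1 was at 5.22, 2.34 and 0.877 CPM in M0 and at 248, 209 and 193 CPM in M2 (log2 6.27 ± 0.49 SE, edgeR adjusted p = 4.62e-08). The metalloproteinase gene Mmp19 rose by 2.54 and the sheddase gene Adam8 by 2.08, and Igf1, a growth factor for mesenchymal cells, by 1.01. Thbs1, which encodes the matrix protein thrombospondin-1, fell from 347, 206 and 140 CPM to 17.7, 16.5 and 14.7 CPM (log2 -3.82 ± 0.32 SE, edgeR adjusted p = 1.05e-07), and Tgfbi fell by 1.48. Mmp12, macrophage elastase, named after its values were seen, was at 1137, 903 and 6634 CPM in M2 against 80.1, 32.6 and 155 CPM in M0 (5.02, and 3.52 without replicate 3).

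Arginine and polyamine genes were called higher in 13 of 24 cases and lower in 4, with a median of 0.93. Besides Arg1 and Slc7a2, Amd1, the decarboxylase that supplies the aminopropyl groups of spermidine, rose from 20.2, 17.9 and 19.6 CPM to 46.8, 44.6 and 57.9 CPM (log2 1.37 ± 0.15 SE, edgeR adjusted p = 2.51e-06), and Azin1, which protects ornithine decarboxylase, from 42.4, 41.3 and 51.4 CPM to 139, 111 and 230 CPM (log2 1.83 ± 0.23 SE, edgeR adjusted p = 8.11e-06). Slc7a7, an arginine exporter, fell by 1.63 and Smox, which oxidizes spermine, fell by 1.46. Eicosanoid genes were called higher in 8 of 20 cases and lower in 8, with a median of 0.46. Ptgir, the prostacyclin receptor, rose by 2.87, the cyclooxygenase gene Ptgs1 by 1.66, the phospholipase gene Pla2g4a by 1.96, the prostaglandin E2 receptor Ptger2 by 1.47 and Ptges2 by 0.89. The leukotriene receptor Cysltr1 fell by 1.42.

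Cholesterol synthesis was called higher in 14 of 24 genes and lower in 1, with a median of 0.83, and this depended on M2 replicate 3. Without that library 8 were higher and 3 lower, with a median of 0.30. Mvd and Dhcr7 did not depend on it. Mvd, of the mevalonate part, was at 25.7, 21.8 and 35.4 CPM in M0 and at 62.6, 54.2 and 66.8 CPM in M2 (log2 1.15 ± 0.17 SE, edgeR adjusted p = 5.79e-05), and Dhcr7, which makes cholesterol in the last step, rose by 0.82. Without replicate 3 Fdps moved from 1.24 to 0.65, Nsdhl from 0.89 to 0.68 and Insig1, the sterol sensor that retains SREBP, from 0.83 to 0.60, all still called. Sqle, squalene epoxidase, chosen after its values were seen, was at 21.8, 21.4 and 125 CPM in M2, and its call was lost without replicate 3 (1.74 and 0.36).

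Fatty acid synthesis was called higher in 8 of 19 genes, with a median of 0.61, and without M2 replicate 3 in 7, with 2 called lower. Elovl1, an elongase of very long chains, rose from 94.5, 81.9 and 83.7 CPM to 189, 173 and 204 CPM (log2 1.12 ± 0.10 SE, edgeR adjusted p = 1.48e-07), Acaca, acetyl-CoA carboxylase, by 1.22 and Elovl5 by 1.04. The desaturase genes Scd2 and Scd1 had log2 fold changes of 2.82 and 2.52, which were 1.78 and 1.31 without replicate 3. Srebf1, the regulator of these genes, rose by 0.64, a call lost without M0 replicate 2 (0.54) and without M2 replicate 3 (0.51). Of 13 LXR targets and efflux genes, 4 were higher and 5 lower, with a median of 0.07. Abcg1, an exporter of cholesterol to HDL, rose from 210, 155 and 223 CPM to 820, 777 and 572 CPM (log2 1.88 ± 0.23 SE, edgeR adjusted p = 8.34e-06), whereas Abca1, the exporter to lipid-poor apolipoprotein, fell from 551, 422 and 318 CPM to 204, 191 and 204 CPM (log2 -1.11 ± 0.19 SE, edgeR adjusted p = 0.000189). Nr1h3, which encodes LXRα, rose by 1.41 and the phospholipid enzyme gene Lpcat3 by 0.70, the latter lost without M2 replicate 3 (0.57).

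Of 27 genes of fatty acid oxidation, 5 were called higher and 3 lower, with a median of -0.03, and 5 were lower without M2 replicate 1. Etfa, which passes electrons from acyl-CoA dehydrogenases on, rose from 49.8, 59.8 and 57.2 CPM to 122, 117 and 110 CPM (log2 1.06 ± 0.09 SE, edgeR adjusted p = 6.26e-08), the trifunctional protein genes Hadhb and Hadha by 0.86 and 0.68 and Plin2, a lipid droplet coat protein, by 1.02, while Acadl was not called (0.52). The call of Hadha was lost without M0 replicate 3 (0.58). Of 49 genes of the TCA cycle and respiration, 11 were higher and 1 lower, with a median of 0.30, and without M0 replicate 3, 21 were higher. Atp5b, the catalytic subunit of ATP synthase, rose from 392, 437 and 396 CPM to 906, 934 and 938 CPM (log2 1.18 ± 0.09 SE, edgeR adjusted p = 3.41e-08), Idh3a, of the TCA cycle, by 1.68, Mdh2 by 1.13, Cyc1 by 1.03 and Ndufs1 by 0.70. Glycolysis was called higher in 10 of 27 genes and lower in 3, with a median of 0.09, in 8 and 6 without M2 replicate 3, with a median of -0.05, and in 11 and 6 without M0 replicate 3. Hk3, a myeloid hexokinase, rose from 157, 185 and 208 CPM to 752, 658 and 744 CPM (log2 1.97 ± 0.11 SE, edgeR adjusted p = 1.61e-09), the phosphofructokinase gene Pfkp by 2.02 and the lactate transporter gene Slc16a1 by 2.40. Other isoforms fell, namely Pfkm (log2 fold change -1.21), Aldoc (-1.72) and the glucose transporter gene Slc2a3 (-1.31).

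Cell cycle genes gave no stable count. DNA replication genes were called higher in 3 of 46 cases and lower in 1, with a median of -0.01. The 3 became 6 without M0 replicate 3 and 7 without M2 replicate 1, and 4 were lower without M0 replicate 1 or M2 replicate 3. Pcna, the sliding clamp, was at 249, 232 and 652 CPM in M2 against 129, 101 and 178 CPM in M0 (log2 fold change 1.47, and 0.82 without replicate 3). Mcm2, of the replicative helicase, rose by 1.07 and the RNase H2 subunit gene Rnaseh2b by 0.82, Tk1, thymidine kinase, fell by 1.06, and Rfc5 and Fen1 were not called (0.41 and 0.47). The call of Tk1 was lost without M0 replicate 3 (-0.55) and without M2 replicate 1 (-0.82), and Fen1 was called without M0 replicate 3 (0.83). Mitosis genes were called lower in 7 of 36 cases by edgeR (13 at an unadjusted p under 0.05, and 9 by DESeq2), with a median of -0.48, and with 1 library left out, between 0 and 26 were lower. The count was 26 without M0 replicate 1, 3 without M0 replicate 2, 1 without M0 replicate 3, 24 without M2 replicate 2 and 0 without M2 replicate 1 or 3. Ube2c, a ubiquitin-conjugating enzyme of anaphase, was at 42.1, 90.6 and 124 CPM in M0 and at 38.7, 59.3 and 36.2 CPM in M2, overlapping groups with a log2 fold change of -0.94, and Espl1, Cenpe, Ndc80, Nusap1 and Cdk1 had -0.83, -0.76, -0.74, -0.72 and -0.61. Each of these 6 calls was lost without M2 replicate 1 and also without M2 replicate 3. Of 41 ribosomal protein genes, 0 were called by edgeR or by DESeq2, and 1 was higher and 1 lower at an unadjusted p under 0.05 in edgeR, with a median of -0.10. In the plot of gene lists, effectors and interferon-stimulated genes have the longest bars in 1 direction.

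**Figure D3:**
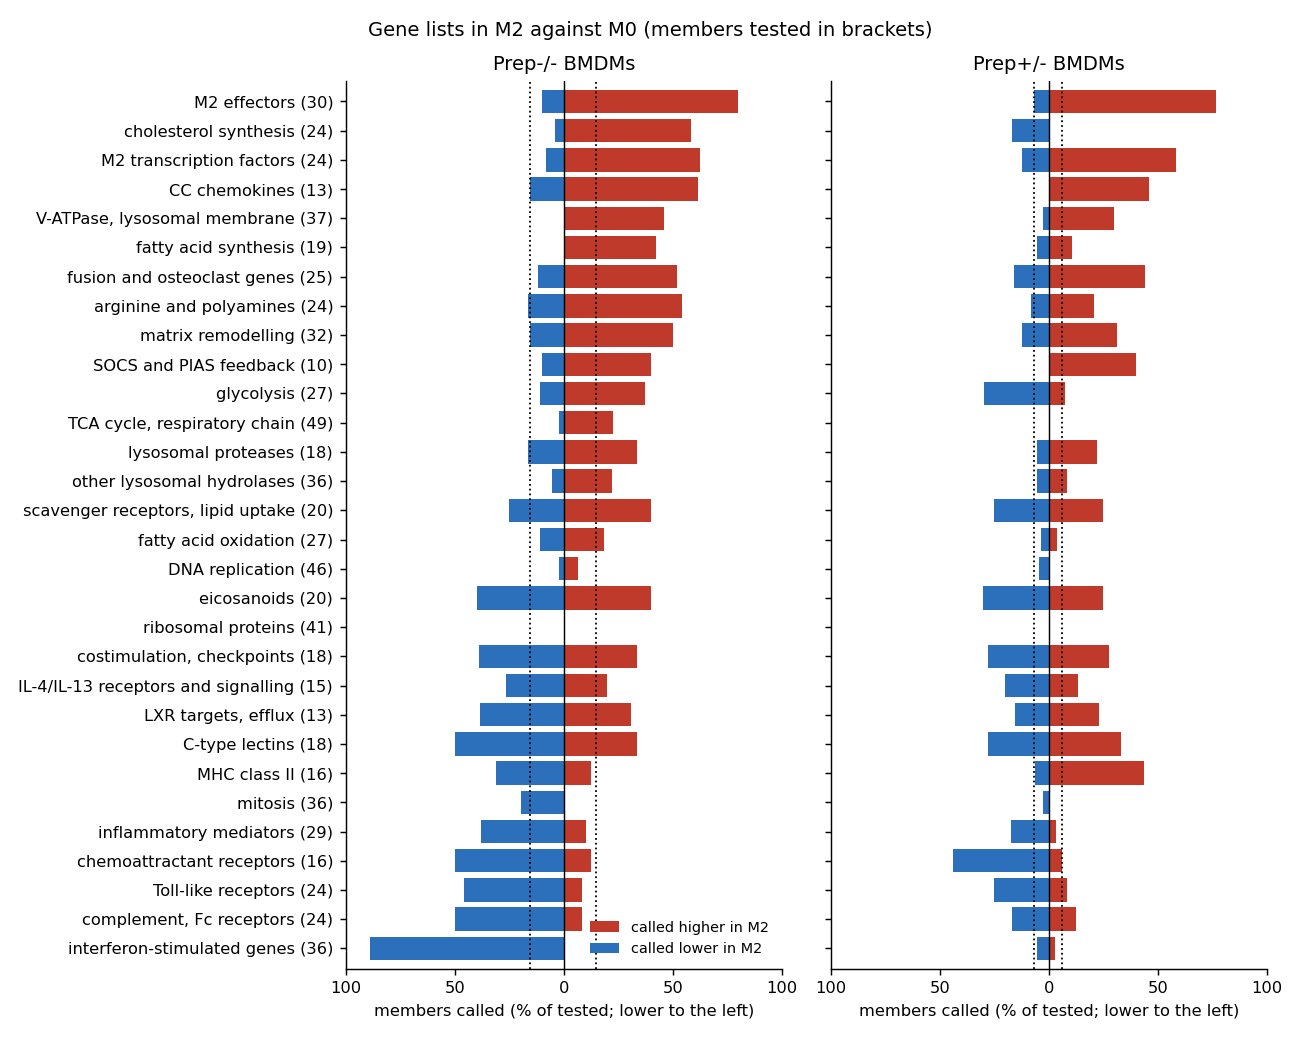
Share of tested members called higher (to the right) and lower (to the left) in M2 against M0, in percent, for 30 gene lists in Prep-/- (left panel) and Prep+/- BMDMs (right panel), with the number tested in brackets and the share of all genes marked. In Prep-/- BMDMs 32 of 36 interferon-stimulated genes were lower, against 2 of 36 in Prep+/- BMDMs.

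Prep+/- BMDMs gave fewer calls to the same stimulus, with 732 genes higher (6.09%) and 812 lower (6.75%), 12.8% in all. Of the genes called higher in Prep-/- BMDMs, 558 were also called higher in Prep+/- BMDMs, which is 31.6% of the former and 76.2% of the latter, and of those called lower, 596 were shared (31.9% and 73.4%). Only 5 and 2 genes were called in opposite directions. A different number of calls does not by itself show a different response, so the difference was tested as the interaction of genotype and stimulus. It was called for 1031 genes (8.58%), 540 with a higher (4.49%) and 491 with a lower (4.08%) log2 fold change in Prep-/- BMDMs. In the plot of both responses the genes whose difference was called lie off the diagonal.

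The core effectors rose in both genotypes. Arg1 was at 2.55, 1.82 and 2.40 CPM in Prep+/- M0 and at 2288, 2142 and 1972 CPM in Prep+/- M2, a log2 fold change of 9.89 against 9.17 in Prep-/- BMDMs. The difference of -0.72 was not called (edgeR adjusted p = 0.362), nor were those of Chil3 (0.50) and Retnla (1.82), the latter called without Prep-/- M0 replicate 1 (3.35). Of the 30 effectors, 23 were higher and 2 lower in Prep+/- BMDMs, with a median of 3.42, and the difference was called higher for 3 (5 without Prep-/- M2 replicate 2) and lower for 5. Mrc1 was among the latter and rose from 546, 455 and 570 CPM to 2401, 2728 and 2335 CPM in Prep+/- BMDMs, by 2.25 against 0.85 (difference -1.40, edgeR adjusted p = 0.00276). Its M0 libraries were higher and its M2 libraries lower in Prep-/- than in Prep+/- BMDMs.

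For C-type lectins the difference was called lower for 9 of 18 and higher for 1. Mgl2 rose by 9.01 in Prep+/- BMDMs against 6.10 (difference -2.91, edgeR adjusted p = 0.00138), and Clec10a by 3.55 against 0.74 (difference -2.82, edgeR adjusted p = 6.91e-05). Cish and Socs3 of the feedback list had differences of -1.40 and -1.43, both called. A larger rise in Prep-/- BMDMs was called, with and without M2 replicate 3, for Ctsk (1.18, edgeR adjusted p = 0.00638), Slc7a2 (1.63), Bhlhe40 (1.68), Fabp4 (1.85), Tmem26 (1.78) and Hk3 (1.35).

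For interferon-stimulated genes the difference between genotypes was called lower for 25 of 36, and for 21 without Prep-/- M2 replicate 3. In Prep+/- BMDMs 1 was higher and 2 were lower, with a median of -0.26. Ifit3 was at 7.02, 3.20 and 8.66 CPM in Prep+/- M0 and at 5.54, 2.01 and 3.26 CPM in Prep+/- M2 (difference -3.71, edgeR adjusted p = 0.00368). Isg15 was at 11.4, 8.60 and 12 CPM and 18.3, 6.84 and 7.00 CPM, and Rsad2 at 12.9, 8.72 and 13.1 CPM and 11.3, 3.73 and 8.87 CPM, against 135, 76.1 and 93.5 CPM and 14.5, 6.30 and 6.66 CPM in Prep-/- M0 and M2. For Ifit3, Isg15 and Rsad2 every Prep-/- M0 library lay above every Prep+/- M0 library, whereas the M2 libraries of both genotypes lay in the same range for Ifit3 and Isg15, and for Rsad2 from 3.73 to 14.5 CPM. Cxcl10 had a difference of -3.74 (edgeR adjusted p = 0.0272), a call lost without Prep-/- M0 replicate 1 (-3.24) or M2 replicate 3 (-3.27), and without Prep+/- M0 replicate 2 (-3.73) or 3 (-3.57) or M2 replicate 1 (-3.80) or 3 (-3.13).

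Among the metabolic lists, those of cholesterol synthesis and glycolysis had the largest shares of differences called higher. For cholesterol synthesis the difference was called higher for 14 of 24 genes, for 5 without Prep-/- M0 replicate 1, 7 without M0 replicate 2 and 6 without M2 replicate 3, and in Prep+/- BMDMs 4 were called lower, with a median of -0.38. Glycolysis had 11 of 27 differences called higher and 1 lower, with 7 higher without Prep-/- M0 replicate 1 or without M2 replicate 3, and arginine and polyamine genes 7 of 24 and 1. Fatty acid synthesis had 4 of 19 called higher, which was 2 without Prep-/- M0 replicate 1 or M2 replicate 3 and 7 without M2 replicate 1 or 2. The other metabolic lists gave few calls, with 4 of 49 higher and 1 lower for the TCA cycle and respiration (median difference -0.01), 1 of 27 higher for fatty acid oxidation (-0.18) and 2 of 13 higher for LXR targets and efflux (-0.08). For Azin1 the Prep+/- libraries were at 107, 149 and 180 CPM in M0 and at 140, 136 and 178 CPM in M2 (difference 1.77, edgeR adjusted p = 0.00334). Its Prep-/- M0 libraries lay below all Prep+/- M0 libraries. MHC class II genes had the difference called lower for 5 of 16, for 2 without Prep-/- M0 replicate 1, for 3 without M2 replicate 2 and for 0 without M2 replicate 3. Cd74 went from 31.3, 31.5 and 21.8 CPM to 336, 321 and 299 CPM in Prep+/- BMDMs (difference -2.50, edgeR adjusted p = 0.0292).

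**Figure D4:**
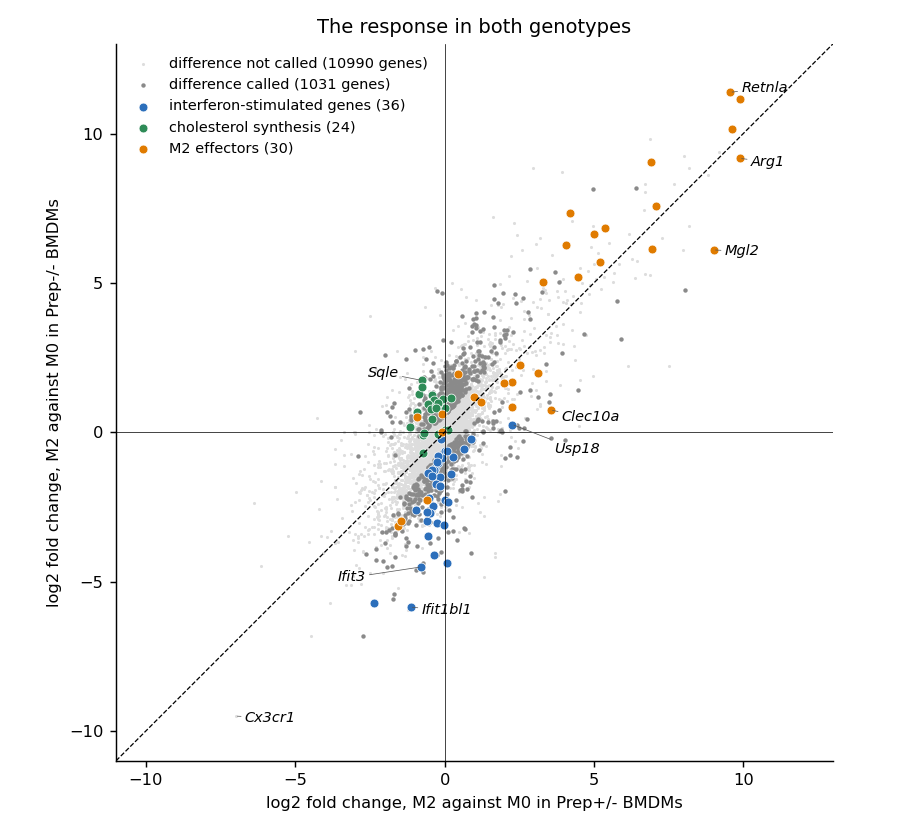
Log2 fold change in M2 against M0 in Prep+/- (horizontal axis) and Prep-/- BMDMs (vertical axis) for 12021 genes, with the 1031 genes whose difference was called in darker grey and members of selected lists in colour. Of the 36 interferon-stimulated genes, 25 were called below the diagonal, and of the 24 cholesterol synthesis genes, 14 were called above it.

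The 6 largest positive differences were those of Pdpn, Bcl2, Ear2, Bex1, Eef1a2 and Myc. Pdpn, which encodes podoplanin, was at 0.806, 0.753 and 1.43 CPM in Prep-/- M0 and at 2.41, 1.55 and 16.7 CPM in Prep-/- M2, with a difference of 3.52. Pdpn, Bcl2, Eef1a2 and Myc each had their highest Prep-/- level in M2 replicate 3, and without it their differences were 1.72, 2.03, 1.63 and 1.69, of which that of Bcl2, the survival factor, was still called. Bex1 did not rest on that library. It rose from 0.0912, 0.118 and 0.160 CPM to 4.26, 4.78 and 3.12 CPM in Prep+/- BMDMs (difference 3.19, edgeR adjusted p = 0.0295), a call lost without Prep-/- M0 replicate 1 (2.97) and without Prep+/- M0 replicate 2 (3.23) or 3 (2.97) or M2 replicate 1 (3.23). Ear2 was at 0.427, 0.126 and 0.231 CPM in Prep-/- M0 and 56.7, 53.5 and 18.4 CPM in Prep-/- M2, and at 0.775, 1.03 and 1.56 CPM in Prep+/- M0 and 22.6, 24.1 and 15.7 CPM in Prep+/- M2 (difference 3.16, edgeR adjusted p = 0.0162), lost without Prep+/- M0 replicate 3 (2.84).

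The 6 largest negative differences were those of Ifit1bl1, Ms4a4a, Ms4a4c, Gm5150, Ifit1 and Cxcl10. Ms4a4a, a membrane-spanning gene of the MS4A family, was at 398, 234 and 324 CPM in Prep-/- M0 and 325, 348 and 126 CPM in Prep-/- M2, not called, and rose from 15.7, 5.68 and 7.13 CPM to 181, 161 and 122 CPM in Prep+/- BMDMs (difference -4.29, edgeR adjusted p = 0.000211). Its relative Ms4a4c fell from 38.9, 25.5 and 27.3 CPM to 3.12, 3.70 and 0.767 CPM in Prep-/- BMDMs and had a log2 fold change of 0.42 in Prep+/- BMDMs. Gm5150 fell by 1.97 in Prep-/- BMDMs and rose by 2.03 in Prep+/- BMDMs (difference -3.99, edgeR adjusted p = 2.52e-05), and it was 1 of the 7 genes called in opposite directions.

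Prep-/- M2 replicate 3 set the size of part of the response. Without it, 1451 genes were called higher and 1694 lower, and 76.8% and 80.7% of the calls made with all libraries remained. Of 720 listed genes, 36 moved by more than 1 on the log2 scale, and all 36 had a higher log2 fold change with replicate 3 included. Those that lost their call, named after their values were seen, included the plasminogen activator gene Plau (2.43 and 0.25 without it), the metalloproteinase inhibitor gene Timp1 (2.34 and 0.66) and Sqle. The fall of Cx3cr1 can be given only as a lower bound, since M2 replicates 1 and 2 hold no count of it, and its place in the plot depends on the prior count. In the plot of both settings these genes lie above the diagonal, with Ccl22, Ocstamp and Mmp12 among those still far from 0.

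**Figure D5:**
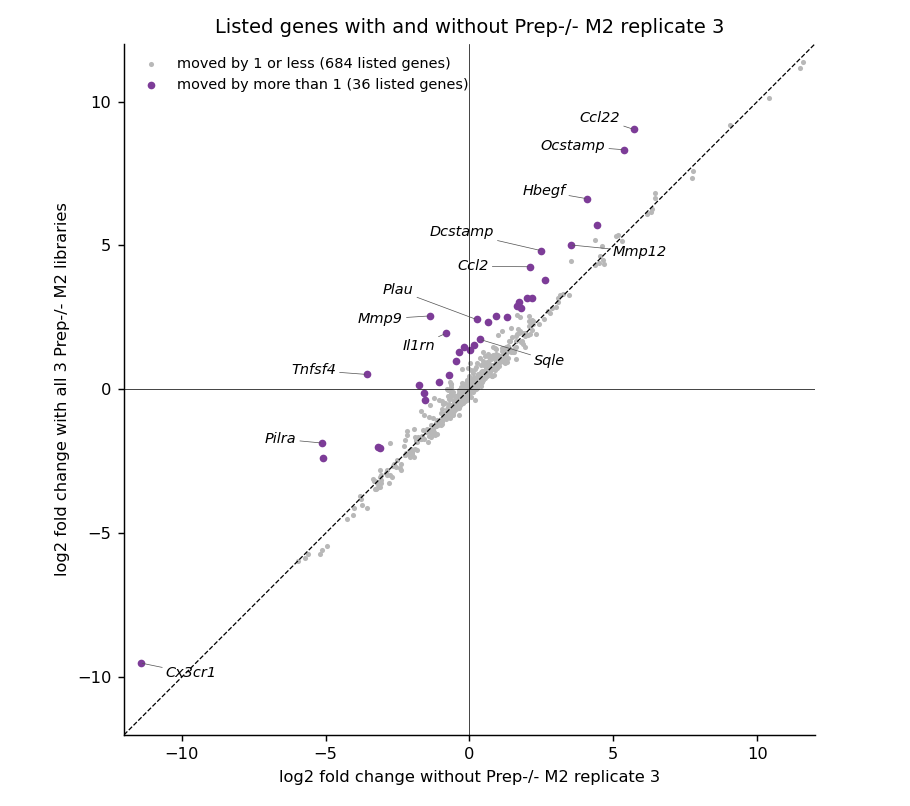
Log2 fold change in M2 against M0 in Prep-/- BMDMs without M2 replicate 3 (horizontal axis) and with all libraries (vertical axis) for 720 listed genes, of which 36 moved by more than 1 (purple) and 684 by 1 or less (grey). All 36 lie above the diagonal.

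Counting adds a limit for some of the genes named, because how strand and reads matching several genes were handled is not given in the sources used here. Stretches of at least 200 bases were at least 90% identical for Chil3 and Chil4 (92.8%), Ifit3 and Ifit3b (97.2%), Mgl2 and Clec10a (93.9%), Ear2 and Ear1 (96.4%), Bex1 and Bex2 (92.3%), Ctla2b and Ctla2a (94.2%), Lyz2 and Lyz1 (95.3%), Pilrb2 and Pilrb1 (95.8%), Ms4a4c and Ms4a4b (91.7%), Scd1 and Scd3 (91.4%), Itgax and Itgad (95%), Cd200r1 and Cd200r4 (93.8%), Marcksl1 and Akr1c19 (91.2%), Pilrb2 and Pilra (94.7%) and Amd1 and Amd2 (99.6%), so that their reads could have been split. Such stretches of Dhcr7, Irf9, Ctsl and Ocstamp matched several other genes each. Irf9 overlaps Rnf31 on the same strand, Jak3 overlaps Insl3 and Acadl overlaps Gm15793. Genes in the table overlap, on the opposite strand, Cxcl10, Adgre4, Ifit1, Bex1, Hk3, Idh3a, Acaca, Stab1, Selenop, Srebf1 and others, and Hadha and Hadhb overlap each other. The values of these genes are uncertain to that extent.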

How the data were processed

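Poly(A) RNA of BMDMs was sequenced from a stranded mRNA library kit (paired-end), 3 libraries for each of 6 groups (Prep-/- and Prep+/-, each as M0, M1 and M2). Per the labels and the study's methods, the authors trimmed reads with Trimmomatic 0.36 and aligned them to GRCm39 with HISAT2 2.2.1.0. The methods then name an assembly into transcripts with StringTie, from which count tables were taken. A table of counts per gene symbol was deposited. The annotation release, the use of strand in counting and the treatment of reads matching several genes are not given in the sources used here.

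The deposited counts of 16314 genes in 18 libraries (19068237 to 22598279 per library, 0 sample columns left unmapped) were analysed in R 4.3.3 with edgeR 4.0.16: filterByExpr over the 6 groups (12021 genes kept), TMM factors (0.818 to 1.20), a robust quasi-likelihood fit with 1 coefficient per group, and Benjamini-Hochberg adjustment over all genes tested. The common biological coefficient of variation was 0.167. Contrasts were M2 minus M0 within each genotype and the difference of both. The study calls its replicates biological, and whether each came from a separate mouse is not given in the sources used here. The p-values rest on the spread between replicate samples, estimated per gene over all 6 groups together. The share of genes over 2-fold apart reached 6.85% in Prep-/- M2, 3.24% in Prep-/- M0 and at most 0.554% in the Prep+/- M0 and M2 libraries. The shared spread can thus be too small for the Prep-/- groups and too large for the Prep+/- groups. Where 1 group had 3 counts or fewer in each of its libraries, the fold was given as a lower bound against a floor of 3 counts per library. Intervals of shares cover counting error only.

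The libraries compared, the 30 gene lists and the 12 marker lists were chosen with earlier results of these data known. Named genes were the genes the study names, the 10 largest rises and falls among called, non-overlapping genes averaging 5 CPM or more, the 5 called genes with the largest change in mean CPM each way, up to 6 members with the smallest adjusted p in each list, and the 6 largest called differences between genotypes each way, and some of them are not reported here. Others were chosen after their values were seen, as were the GAAA repeat motif and the setting that leaves out both replicates 3. The sterol-response motif TCACNCCAC, also added then, was in 1.35% of promoter windows and in 1 of 17 of the cholesterol list.

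On simulated counts for M2 against M0 in Prep-/- BMDMs (12021 genes, 200 changed), edgeR recovered 67% of genes changed by 1 and 86% of those changed by 2 on the log2 scale, and 3.77% of the genes it called had been left unchanged. DESeq2 1.42.0, run as an alternative, recovered 79% and 88%, and 12.6% of its calls had been left unchanged. The simulation gave all groups the same spread per gene and held no outlying library. Its error shares therefore need not hold for the Prep-/- libraries. Positions came from GENCODE M39 (15667 of 16314 symbols matched) and promoters from a RefSeq table of GRCm38.p6, another build than that of the counts, used by symbol. Near copies were searched with blastn 2.17.0. The M1 libraries entered the filter, the TMM factors and the shared estimate of the spread, and no contrast.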

Additional observations from a re-analysis of the deposited data

Results flagged for a closer look

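The response to IL-4 and IL-13 differed between genotypes by the interaction test for 540 genes with a larger and 491 with a smaller log2 fold change in Prep-/- BMDMs. Each value in this section is the log2 fold change in Prep-/- minus that in Prep+/- BMDMs.

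Among the genes named by rule, the smaller or more negative values were those of Ifit1bl1 (-4.72), Ms4a4a (-4.29), Ms4a4c (-4.01), Gm5150 (-3.99), Ifit1 (-3.76), Cxcl10 (-3.74), Ifit3 (-3.71), Il1b (-3.24), Ctla2b (-2.57), Ly6a (-2.25) and Mrc1 (-1.40). The positive values were those of Pdpn (3.52), Bcl2 (3.29), Bex1 (3.19), Ear2 (3.16), Eef1a2 (3.15), Myc (2.85), Tmem26 (1.78), Ctsk (1.18) and Gpnmb (0.96).

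With 1 library left out, 9 of these calls were lost, those of Bex1, Cxcl10 and Ear2 as given above and those of 6 further genes. Gpnmb lost it without Prep+/- M0 replicate 2 (0.92) or M2 replicate 1 (0.89), and Ifit1bl1 without Prep+/- M2 replicate 1 (-4.27). Il1b lost it without any of 8 libraries (-3.41 to -2.83), namely each Prep-/- M2 and Prep+/- M0 library and Prep+/- M2 replicates 1 and 2. Eef1a2 (1.63 to 3.16), Pdpn (1.72 to 3.43) and Myc (1.69 to 3.12) lost it without Prep-/- M0 replicate 1 or 2, Prep-/- M2 replicate 3, Prep+/- M0 replicate 2 or 3 or Prep+/- M2 replicate 1 or 2, and Myc also without Prep-/- M0 replicate 3. For Il1b, at 8.87, 3.06 and 1.94 CPM in Prep-/- M0, 0.402, 0.250 and 0.383 CPM in Prep-/- M2, 1.05, 1.38 and 0.962 CPM in Prep+/- M0 and 0.682, 1.22 and 0.535 CPM in Prep+/- M2, the first Prep-/- M0 library was the highest of all 12.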

How the results depend on the processing

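With another tool, normalization or filter, the counts of calls stayed within 1.5 times of 1765 higher and 1866 lower. They were 1448 and 2233 with library totals (median of all genes -0.12 instead of -0.02) and 1733 and 1899 with RLE factors. Without a filter on low counts they were 1818 and 1840, with a minimum mean of 1 CPM 1622 and 1725, and DESeq2 gave 1760 and 1944. Without a fold minimum 2652 genes were higher in Prep-/- and 1118 in Prep+/- BMDMs. At over 2-fold, the counts higher and lower were 961 and 1074 in Prep-/-, 459 and 477 in Prep+/- BMDMs, and 295 and 288 for the difference. With glmTreat against 1.5-fold they were 948 and 947, 372 and 298, and 43 and 60. Fitting only the libraries compared gave 1292 and 1267 calls in Prep-/-, 853 and 1058 in Prep+/- BMDMs, and 239 and 293 differences. It kept 73.1% of the higher and 67.7% of the lower calls in Prep-/- BMDMs. Leaving out 1 library, M2 against M0 gave 1451 to 1862 higher and 1694 to 2081 lower in Prep-/- and 617 to 662 and 609 to 731 in Prep+/- BMDMs. The difference gave 266 to 829 and 233 to 613, with 829 higher without Prep-/- M2 replicate 2 and, higher and lower, 269 and 233 without Prep+/- M0 replicate 2, 271 and 285 without M0 replicate 3, 266 and 253 without M2 replicate 1 and 307 and 308 without M2 replicate 2, and the cause was not tested. Without both Prep-/- replicates 3 there were 1510 and 1786 calls. The labels do not pair same-numbered M0 and M2 samples, and the main design does not, their deviations from the group means correlating at 0.060, 0.176 and 0.010 in Prep-/- and at 0.245, -0.076 and 0.137 in Prep+/- BMDMs. A replicate block within genotype gave 1759 and 1873 calls, 503 and 520 differences and 768 and 865 in Prep+/- BMDMs, and with a block in the 6 Prep-/- libraries alone 1150 and 1125. In the upstream part of the window, a shorter stretch, the share with the STAT6-type motif fell from 7.90% to 6.56% of called higher genes. Over all genes tested that share fell from 6.77% to 5.76%, and over genes that rose over 8-fold from 13.1% to 10.9%. Of the values of named genes in M2 against M0 over these settings, 3547 kept direction and call, 143 lost and 18 gained the call and 12 changed sign, and of the differences 956, 70, 10 and 16. No value that changed sign was called in either setting. With 1 library left out, M2 against M0 ran from -0.51 to 0.08 for Ms4a4a, -0.39 to 2.15 for Nos2, -1.57 to 0.28 for Tnf, -0.56 to 0.05 for Rpl37a and -0.65 to 0.06 for Rps14. Without both Prep-/- replicates 3 it was 0.09 for Ms4a4a, 0.12 for Rpl37a and Rps14, 0.09 for Rps20 and 0.01 for Rps27a. The difference ran from -1.22 to 3.43 for Ccl22, -1.25 to 0.97 for Chil4, -0.12 to 0.26 for Ctss, -0.74 to 4.11 for Il6, -0.11 to 0.39 for Lgals3, -2.51 to 0.90 for Nos2, -1.36 to 2.65 for Ocstamp and -2.14 to 2.10 for Scn3a. For Ctss it was 0.01 with DESeq2 or RLE factors, 0.00 without the filter and 0.02 with the replicate block. The cause was not tested. With 3 libraries a group, changes of low genes were not detectable at this depth where they lay under the floor of 3 counts.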
